A study of Mus musculus with 3 samples.

Results

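Desmosomes are adhesive plaques that hold epithelial cells together and anchor their keratin filaments. In them, desmosomal cadherins such as desmoglein 2 bridge neighbouring cells, the armadillo proteins plakoglobin and plakophilins bind the cadherin tails, and desmoplakin ties the plaque to keratins. Keratin filaments are built from pairs of a type I and a type II keratin. Krt8 with Krt18 is the pair of simple epithelia such as the luminal layer of the prostate, Krt7 and Krt19 are also found in simple epithelia, and Krt5 belongs to basal cells. The 10 genes described here are Dsp (desmoplakin), Jup (plakoglobin), Pkp1 and Pkp3 (plakophilins), Dsg2 (desmoglein 2), the type II keratin genes Krt5, Krt7 and Krt8, and the type I keratin genes Krt18 and Krt19. They were taken by gene name from the noncontrol probes of the arrays, which gave 15 probes in 24 spots, out of 39429 distinct probes under 30199 gene names.

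The RM1 line is a prostate cancer line of the mouse, derived from urogenital sinus tissue transformed with ras and myc. Transfection with MXRA7 (matrix remodelling associated 7) gave RM1-MXRA7 cells, and transfection with the empty vehicle vector gave RM1-VE cells. Both were kept in medium with serum and G418 and taken in exponential growth on day 2. Total RNA of the pair was hybridised to 3 Agilent 2-colour arrays, with RM1-MXRA7 in Cy3 and RM1-VE in Cy5 on each, so every ratio below is RM1-MXRA7 over RM1-VE with n = 3. The labels do not say whether the repeats were separate cultures or whether a line is 1 clone, so p-values measure only the spread between these samples, which may be technical. No dyes were swapped, so dye bias and a true difference cannot be told apart for any single probe.

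The arrays have 2 features that touch these genes. Log2 ratios ran along the rows of every array, and less so among spots of a log2 intensity under 8 than among brighter ones. A polynomial surface over row, column and intensity accounted for 27.4% of the variance of array 1, 26.3% of that of array 2 and 19.8% of that of array 3. A gene is said to have risen or fallen only where limma called it in the same direction before and after this surface was removed. The transfected gene gave no check of the direction. Its brighter Mxra7 probe lay at 0.31 ± 0.14 before and 0.0069 ± 0.05 after surface removal (SD, n = 3), and at -0.034 ± 0.04 in Agilent's processed signals. The other kept Mxra7 probe lay at 0.10 ± 0.04, 0.091 ± 0.05 and 0.18 ± 0.12 in the same order. Neither Mxra7 probe was called in both fits. As markers of the labelled cell type, Krt8 and Krt18 were well above background in both lines, but the other 8 of 10 luminal prostate markers, among them Pbsn, Epcam and Cdh1, were not well above background on any array. Of 8 fibroblast and mesenchymal markers 7 were detected, including the vimentin gene Vim.

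The probe sequences on which the main results rest are given below, as the array files hold them. Each probe has 60 bases, read 5′ to 3′. Coordinates refer to mm9, as in the array files. Dsp has a probe on the plus strand at chr13:38290121-38290180, spotted 10 times, whose first 30 bases are shown. Its other probe is on the plus strand, and its coordinates, chr13:38285480-38286579, span more than its 60 bases. Krt8 has probes on the minus strand at chr15:101828827-101828886 and at chr15:101827138-101827197, the second shown by its first 30 bases. The Krt18 probe, on the plus strand at chr15:101862341-101862400, is shown by its first 52 bases, with TGA in capitals, the furthest of the first stop triplets of its 3 reading frames. The Krt19 probe is on the minus strand at chr11:100002392-100002451.
Dsp, A_51_P101460: aaattacactgactactggtggcttagtac
Dsp, A_51_P201884: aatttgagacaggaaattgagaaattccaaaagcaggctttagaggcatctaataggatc
Krt8, A_55_P2128501: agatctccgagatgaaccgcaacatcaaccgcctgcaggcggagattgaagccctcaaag
Krt8, A_66_P128079: ccatccaaacccaattcagttgtattttct
Krt18, A_51_P324814: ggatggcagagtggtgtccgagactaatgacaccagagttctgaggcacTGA
Krt19, A_51_P356642: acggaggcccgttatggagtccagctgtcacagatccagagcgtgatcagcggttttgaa

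Dsp was lower in RM1-MXRA7 and Krt19 was lower in RM1-MXRA7, while no member rose in both fits. Dsp, the plaque protein that binds keratin filaments, was measurable in RM1-VE cells and was not well above background in RM1-MXRA7 cells, a difference of at least 2.47-fold. Krt19 fell by 0.73 ± 0.16 on the log2 scale (SD, n = 3), or 1.66-fold. Jup, Pkp3 and Krt8 lay between -0.37 and -0.12 and were not called in both fits. Krt18 had a ratio of 0.59 before surface removal and -0.016 after it. Pkp1, Dsg2, Krt5 and Krt7 were not well above background in either line on any array.

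Of the 15 probes, 7 probes of 6 genes passed the filter on low signal, which asked that 1 line or both exceed background clearly on every array. The Dsp and Jup probes passed through RM1-VE alone, which favours lower ratios, so the Dsp call is in part set by the filter. Among these 7, limma with Benjamini-Hochberg adjustment over 21792 kept probes called 2 lower and 0 higher in both fits. Over all kept probes 23.7% were called in both fits, 12.5% lower and 11.2% higher, so 2 of 7 is near the share among all probes. The median log2 ratio of the 7 was -0.28 before and -0.12 after surface removal, against -0.011 and 0.0013 over all kept probes. Before surface removal alone, 5 were called lower and 1 higher, where 47.3% of all kept probes were called. After it, the 2 called were the same 2 probes, where 31.7% of all were called. With the local median removed (described with Krt18) 1 was called higher and 2 lower, against 29.9% of all kept probes called, and with Agilent's processed signals also 1 higher and 2 lower, against 23.5%.

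**Figure D1:**
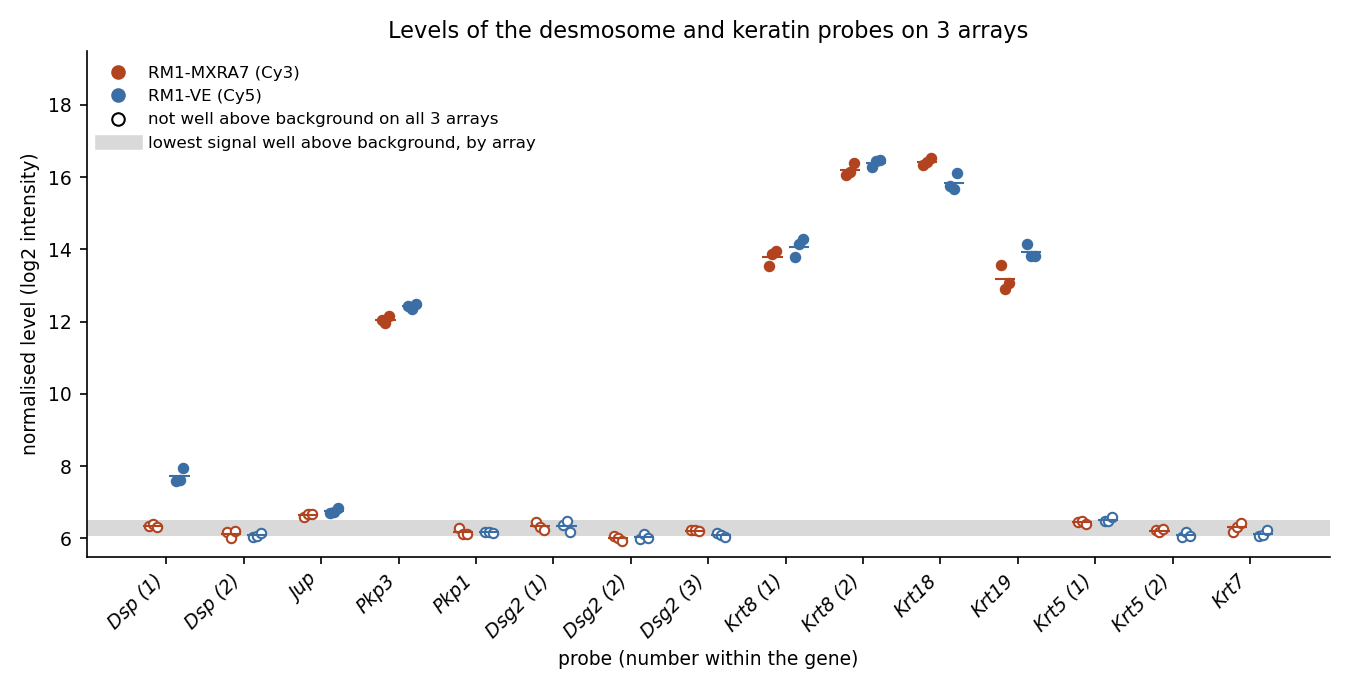
Normalised log2 intensity of each of the 15 probes on the 3 arrays, RM1-MXRA7 left of RM1-VE, with a line at each mean; open points mark lines in which the probe was not well above background on all 3 arrays, and the grey band spans the lowest signals well above background. The Dsp probe spotted 10 times stands above the band in RM1-VE at 7.59 to 7.96 and lies at 6.31 to 6.39 in RM1-MXRA7.

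In the desmosomal plaque, the Dsp probe A_51_P101460 had normalised log2 levels of 6.35, 6.39 and 6.31 in RM1-MXRA7 cells on arrays 1, 2 and 3, against 7.59, 7.63 and 7.96 in RM1-VE cells. The highest RM1-MXRA7 level lay below the lowest RM1-VE level, and none of the 3 in RM1-MXRA7 was well above background. The log2 ratio was -1.38 ± 0.24 (SD, n = 3; limma adjusted p = 2.93e-09). With the surface removed it was -1.36 ± 0.25 (limma adjusted p = 7.13e-06). The filter kept this probe through RM1-VE alone, so these p-values and the lack of overlap are no separate support for a fall. Since the RM1-MXRA7 channel holds only a bound, the difference is given as at least 2.47-fold lower in RM1-MXRA7, from the lowest signal well above background on each array or the probe's own value where that was higher. Calls of at least 2-fold in both fits covered 0.858% of all kept probes, and those at least 2-fold lower 0.551%.

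The 10 spots of this Dsp probe, spread between rows 123 and 523, were read separately. In Agilent's processed signal on array 1 they ran from 2.33 to 4.6 with a median of 2.57 in RM1-MXRA7, against 45.4 to 53.2 with a median of 48.0 in RM1-VE. Array 2 gave a median of 2.40 in RM1-MXRA7, against 54.5 in RM1-VE. Array 3 gave a median of 2.67 in RM1-MXRA7, against 78.5 in RM1-VE. On each array 0 of 10 spots were well above background in RM1-MXRA7, against 10 of 10 in RM1-VE. After loess the spot ratios lay between -1.44 and -0.81 on array 1, between -1.47 and -0.95 on array 2 and between -1.84 and -1.44 on array 3, so 10 of 10 were below 0 on every array. Spots of 1 probe on 1 array share the same RNA and are not replicates of the lines. Because the filter kept this probe through RM1-VE alone, the spot counts and spot ratios are no separate support for a fall. The processed signals gave a log2 ratio of -4.45 ± 0.36 (SD, n = 3) for the probe, which is no measured fold, because the Cy3 side is at background. The offset of 50 added to every intensity in the normexp correction draws the ratio of such a dim probe towards 0.

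**Figure D2:**
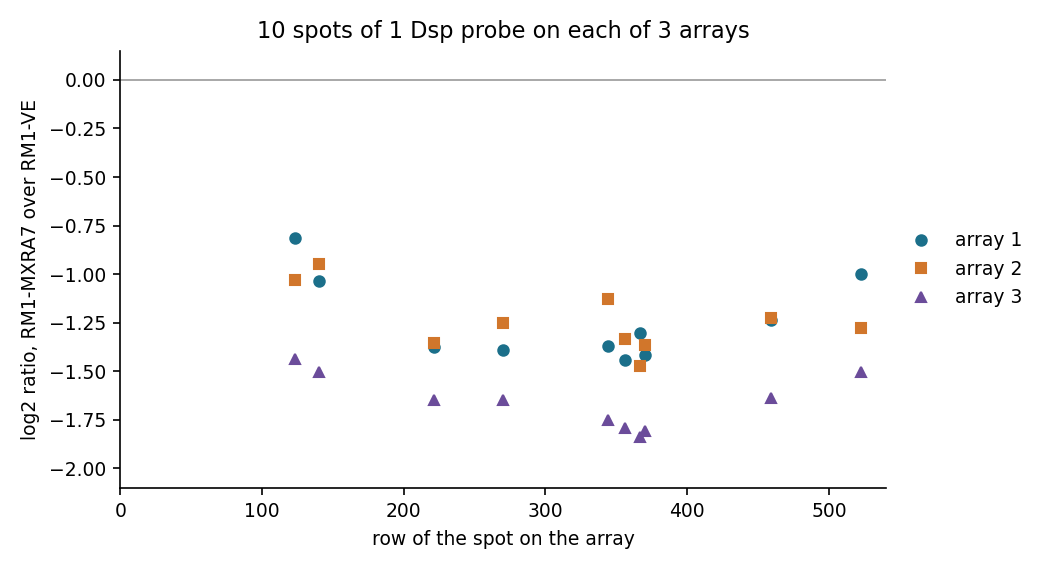
Log2 ratio of RM1-MXRA7 over RM1-VE after loess for the 10 spots of 1 Dsp probe, by array row, with 1 symbol for each array. All 30 points lie below 0, and those of array 3 run from -1.84 to -1.44. The filter kept this probe through RM1-VE alone, which favours ratios below 0.

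The other Dsp probe, A_51_P201884, was not well above background in either line on any array. Its levels were 6.18, 6.01 and 6.20 in RM1-MXRA7, against 6.05, 6.08 and 6.14 in RM1-VE, so the groups overlapped. The statement on Dsp therefore rests on 1 of its 2 probes.

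Pkp3, a plakophilin of the plaque, was bright in both lines. Its levels were 12.05, 11.96 and 12.16 in RM1-MXRA7, against 12.44, 12.35 and 12.49 in RM1-VE. The groups did not overlap in these levels, from which no surface was removed. Here and for the genes below, the share of all kept probes without overlap was not counted. The log2 ratio was -0.37 ± 0.03 (SD, n = 3; limma adjusted p = 0.000791), but -0.16 ± 0.07 with the surface removed, where it did not pass (limma adjusted p = 0.0625). The spot of Pkp3 lies in row 501 of 532, and the surface there had a mean of -0.21 over the arrays.

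Jup, which links desmosomal cadherins to desmoplakin, was dim. Its levels were 6.58, 6.67 and 6.68 in RM1-MXRA7, well above background on 2 of 3 arrays, against 6.71, 6.74 and 6.84 in RM1-VE, well above background on 3 of 3. The ratio was -0.12 ± 0.05 (SD, n = 3; limma adjusted p = 0.209), with -0.072 ± 0.03 after surface removal (limma adjusted p = 0.35). It was below 0 on 3 of 3 arrays in both fits. The filter kept the Jup probe through RM1-VE alone, which favours lower ratios, so the shared sign is no separate support for a fall. Whether a difference of this size could be detected here was not tested.

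Pkp1, a plakophilin of stratified epithelia, and Dsg2, the desmosomal cadherin of simple epithelia, gave no measurable signal. The Pkp1 probe had 6.28, 6.12 and 6.12 in RM1-MXRA7, against 6.17, 6.19 and 6.14 in RM1-VE. The 3 Dsg2 probes had mean levels of 6.34, 6.0 and 6.22 in RM1-MXRA7, against 6.35, 6.05 and 6.10 in RM1-VE. For comparison, the lowest signal well above background on an array lay between 6.24 and 6.48 in Cy3 and between 6.10 and 6.46 in Cy5. These probes only say that the transcripts were not well above background, not that they were absent.

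Among the type I keratins, Krt19 fell. Its levels were 13.58, 12.91 and 13.08 in RM1-MXRA7, against 14.15, 13.81 and 13.82 in RM1-VE. The groups did not overlap, and array 1 was the highest in both lines. The log2 ratios were -0.57, -0.90 and -0.74 on arrays 1, 2 and 3 (limma adjusted p = 2.86e-06). With the surface removed the mean was -0.87 ± 0.10 (SD, n = 3; limma adjusted p = 1.52e-05), or 1.83-fold lower, and Agilent's processed signals gave -0.89 ± 0.10. Before surface removal 1.23% of kept probes had a lower ratio than Krt19, and after it 0.771%.

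Krt18, the type I partner of Krt8, depended on the processing. Its levels were 16.33, 16.43 and 16.54 in RM1-MXRA7, against 15.75, 15.68 and 16.10 in RM1-VE. The groups did not overlap in these levels, from which no surface was removed. The log2 ratios were 0.58, 0.75 and 0.44 (limma adjusted p = 2.72e-05). After the polynomial surface was removed they were -0.033, -0.026 and 0.011, and the probe did not pass (limma adjusted p = 0.848). The spot lies in row 33 of 532 and has a mean log2 intensity of 16.1, 16.0 and 16.3 on arrays 1, 2 and 3, and the surface value there was 0.60 on average.

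In the first rows, the bright spots of all genes, with a log2 intensity of 14 or more, had median ratios of 0.37, 0.43 and 0.31 on arrays 1, 2 and 3 before the surface was removed. After it they lay at -0.13, -0.24 and -0.12, below the Krt18 ratios of the same arrays. An alternative chosen after the data were seen subtracted, for each spot, the median of the spots nearest in row, column and intensity. With it Krt18 had ratios of 0.20, 0.30 and 0.17, a mean of 0.22 ± 0.07 (SD, n = 3; limma adjusted p = 0.0183). Agilent's processed signals gave 0.30, 0.38 and 0.33, a mean of 0.34 ± 0.04 (SD, n = 3; limma adjusted p = 0.0153). Krt18 was thus called higher in 3 of these 4 ways of processing, with sizes from 0.22 to 0.59, and not in the other. With median centring in place of loess its ratio was -0.17 (limma adjusted p = 0.0962).

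**Figure D3:**
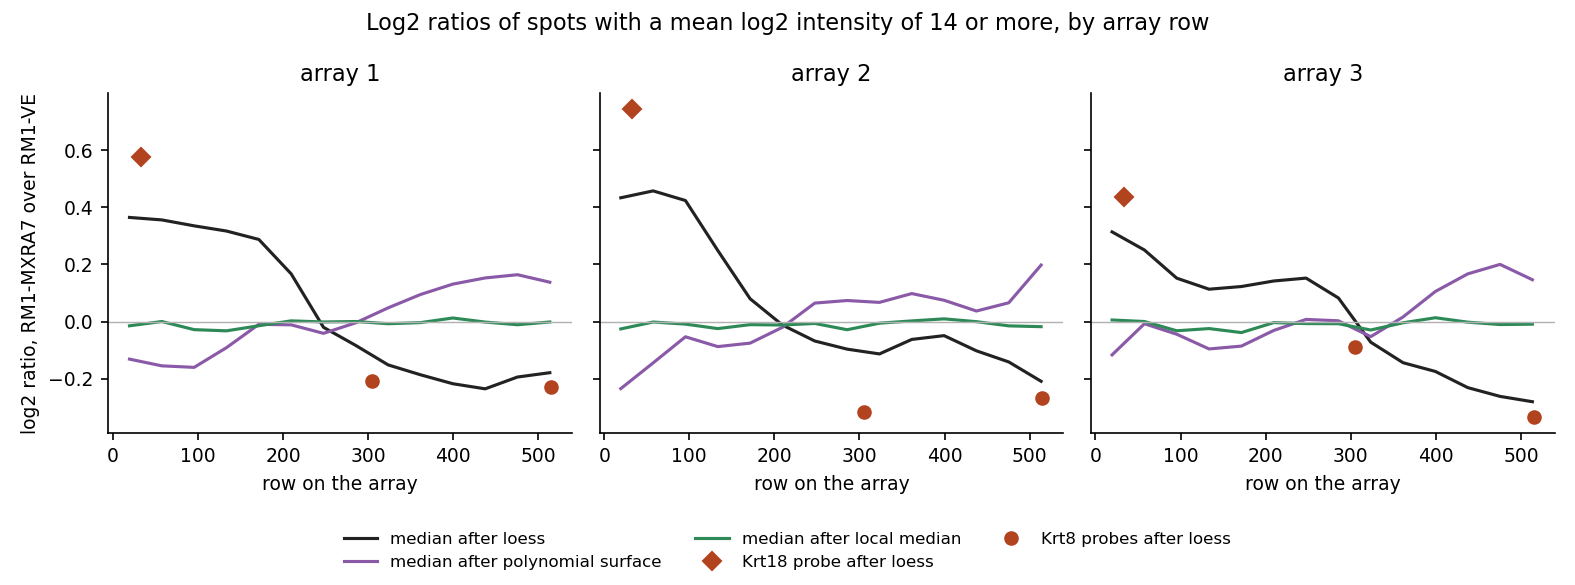
Median log2 ratio of RM1-MXRA7 over RM1-VE by array row, in bins of 38 rows, for spots of log2 intensity 14 or more after loess, after removal of the polynomial surface and after removal of the local median; symbols mark the Krt18 and Krt8 probes after loess. The medians after loess fall along the rows, and Krt18 at row 33 lies above them at 0.58, 0.75 and 0.44.

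Krt8, the type II partner of Krt18, was bright on both of its probes. The probe A_66_P128079 had levels of 16.07, 16.13 and 16.40 in RM1-MXRA7, against 16.28, 16.45 and 16.48 in RM1-VE, and the groups overlapped. The probe A_55_P2128501 had levels of 13.55, 13.88 and 13.95 in RM1-MXRA7, against 13.78, 14.15 and 14.29 in RM1-VE, which also overlapped. On each array both probes were lower in RM1-MXRA7 before surface removal, with means of -0.21 ± 0.12 and -0.28 ± 0.05 (SD, n = 3; limma adjusted p = 0.0388 and 0.0064).

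With the surface removed the same Krt8 probes lay at -0.12 ± 0.04 and 0.061 ± 0.09 and did not pass (limma adjusted p = 0.123 and 0.465). The spot of A_55_P2128501 lies in row 515 of 532, with log2 intensities of 13.65, 13.98 and 14.16 on arrays 1, 2 and 3. In the last rows, spots of all genes with an intensity of 14 or more had medians of -0.18, -0.21 and -0.28 before surface removal. After it they lay at 0.14, 0.20 and 0.15, and spots of intensity 11 to 14 at -0.011, 0.045 and -0.022. With the local median removed the Krt8 probes lay at -0.11 ± 0.06 and -0.079 ± 0.02. In Agilent's processed signals they lay at -0.10 ± 0.05 and -0.058 ± 0.05, with no call in either. Its filament partner Krt18 had 0.22 with the local median removed and 0.34 in the processed signals, and the difference between the ratios of Krt18 and Krt8 was not tested.

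The basal keratin Krt5 and the simple epithelial keratin Krt7 were not well above background in either line. The Krt5 probes had mean levels of 6.45 and 6.21 in RM1-MXRA7, against 6.52 and 6.09 in RM1-VE. The Krt7 probe had 6.19, 6.32 and 6.41 in RM1-MXRA7, against 6.07, 6.09 and 6.25 in RM1-VE. With no filter on low signal, 0 of the 8 member probes that failed it were called by limma at an adjusted p of 0.05.

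**Figure D4:**
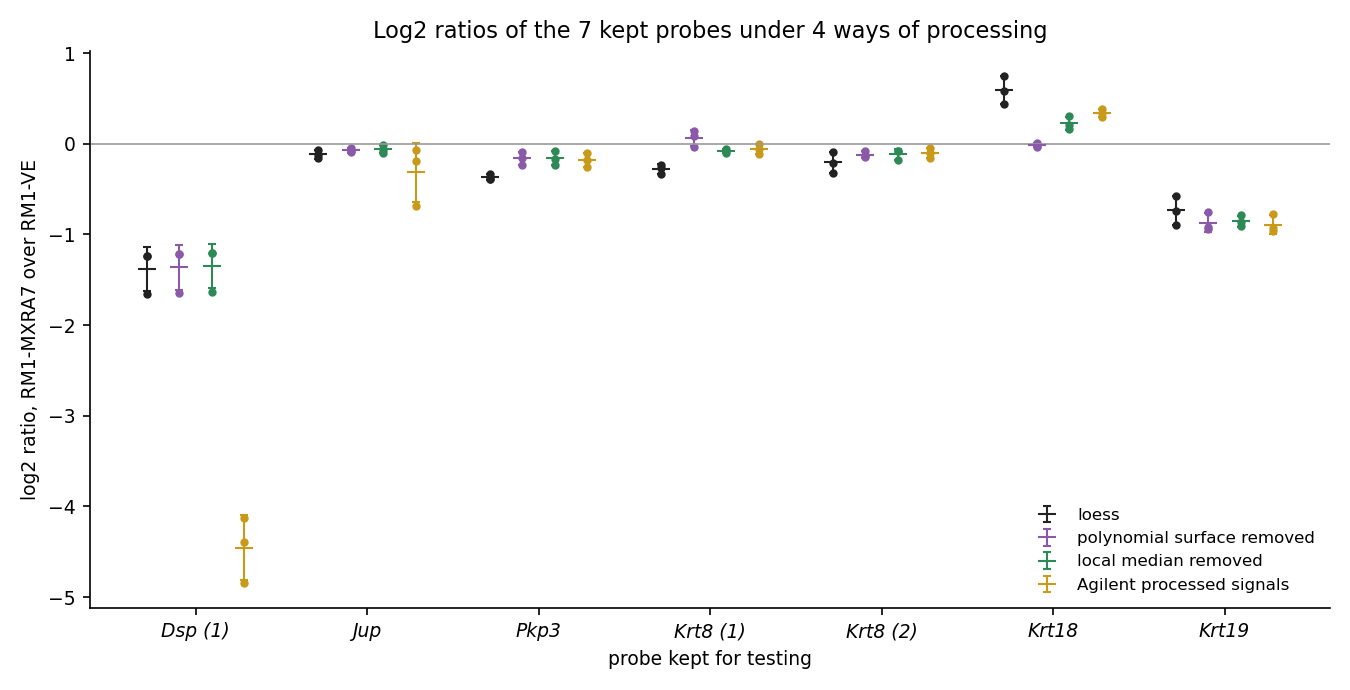
Log2 ratio of RM1-MXRA7 over RM1-VE for the 7 kept probes under 4 ways of processing; points are the 3 arrays, bars the mean and its SD. The means of Krt19 lie between -0.89 and -0.73 in all 4, while those of Krt18 lie between -0.016 and 0.59.

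Other genes of the desmosome were read from a list of 14. Probes of 6 genes were kept, of which 2 were called lower and 0 higher in both fits, beside the 12.5% lower and 11.2% higher among all kept probes, against which the counts of the lists that follow are also to be read. Cdsn, the corneodesmosin gene, had a log2 ratio of -0.67 ± 0.18 and -0.56 ± 0.15 with the surface removed (SD, n = 3; limma adjusted p = 8.68e-06 and 0.000477). Perp, a tetraspan membrane protein needed for desmosome assembly in mouse skin, had -0.46 ± 0.20 and -0.42 ± 0.22 (limma adjusted p = 0.00036 and 0.00508). It was well above background on 1 of 3 arrays in RM1-MXRA7, against 3 of 3 in RM1-VE. The filter thus kept Perp through RM1-VE alone, which favours a lower ratio, so its call is in part set by the filter. Pkp2, the plakophilin of simple epithelia and heart, lay at 0.30 before and -0.023 after surface removal, Pkp4 at -0.21 and -0.17, the plakin genes Ppl at -0.15 and 0.022 and Evpl at 0.24 and 0.098, and none of these was called in both fits. The median of the 6 was -0.18 before and -0.096 after surface removal. No desmoglein or desmocollin gene cleared background on every array in either line, although Dsc2, Dsc3 and Dsg1c were so on 1 or 2 arrays.

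Of the other type II keratins, probes of 10 of the 21 genes on the array were kept, and 2 probes rose and 2 fell of 11. Krt76, a keratin of oral epithelium, had levels of 11.46, 11.40 and 11.78 in RM1-MXRA7, against 9.88, 9.78 and 10.79 in RM1-VE. The groups did not overlap, and the ratio was 1.40 ± 0.35 (SD, n = 3; limma adjusted p = 1.63e-08), with 1.18 ± 0.25 after surface removal. Krt79 rose by 0.45 and by 0.35 after surface removal. Krt6b, a keratin of stressed and healing epidermis, had ratios of -0.29 before and -0.22 after surface removal, and was well above background on 1 of 3 arrays in RM1-MXRA7, against 3 of 3 in RM1-VE. Krt78 had ratios of -0.22 and -0.27 and was not well above background in RM1-MXRA7. Its 1.17-fold difference is the measured ratio before surface removal, not a bound. Krt6b and Krt78 were both kept through RM1-VE alone, which favours a lower ratio. A second probe of each failed the filter, at -0.13 and -0.081 for Krt6b and at -0.084 and -0.035 for Krt78.

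Of the other type I keratins, probes of 12 of 26 genes were kept, and 1 probe rose and 2 fell of 15. Krt42 lay at -0.43 ± 0.16 (SD, n = 3; limma adjusted p = 0.000424) and at -0.70 ± 0.09 with the surface removed, and a second probe of it was not well above background. Krt27, a hair follicle keratin, had -0.49 and -0.51. It was well above background on 2 of 3 arrays in RM1-MXRA7, against 3 of 3 in RM1-VE, and so was kept through RM1-VE alone. Krt36 had 0.32 and 0.20, and its other kept probe lay at 0.12 and 0.16 without a call. The basal keratin Krt14 was detected in both lines at -0.17 and -0.18 and did not pass. The medians were -0.028 and -0.11 for type II and -0.052 and -0.10 for type I, before and after surface removal.

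Other intermediate filament genes gave 1 rise and 2 falls among 10 kept probes. The neurofilament light chain gene Nefl rose by 0.92 ± 0.32 and by 1.1 ± 0.29 with the surface removed (SD, n = 3). The internexin gene Ina had -0.61 and -0.71, and the nestin gene Nes had -0.54 ± 0.40 and -0.68 ± 0.33 (SD, n = 3). Vim, the mesenchymal filament gene, lay at 0.042 ± 0.16 and 0.079 ± 0.01 and was not called. Among plakin and hemidesmosome genes, 4 of 12 kept probes rose and 4 fell, where 23.7% of all kept probes were called in either direction. Itga6, the alpha chain gene of the hemidesmosomal integrin, rose by 0.73 and 0.52 on its called probes (0.55 and 0.25 with the surface removed) and Cd151 by 0.47 on 1 probe, whereas 2 probes of the epiplakin gene Eppk1 fell by 0.45 and 0.29 and 2 of Dst by 0.44 and 0.41 (0.27 and 0.27 with the surface removed). Another kept probe of Dst lay at 0.27 before and 0.087 after surface removal. The other Cd151 probe lay at 0.16 and 0.43, and the Itgb4 probe at 0.14 and 0.023. None of these was called in both fits. The 2 Eppk1 probes overlap in position on chromosome 15 and are not separate measurements of that gene.

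**Figure D5:**
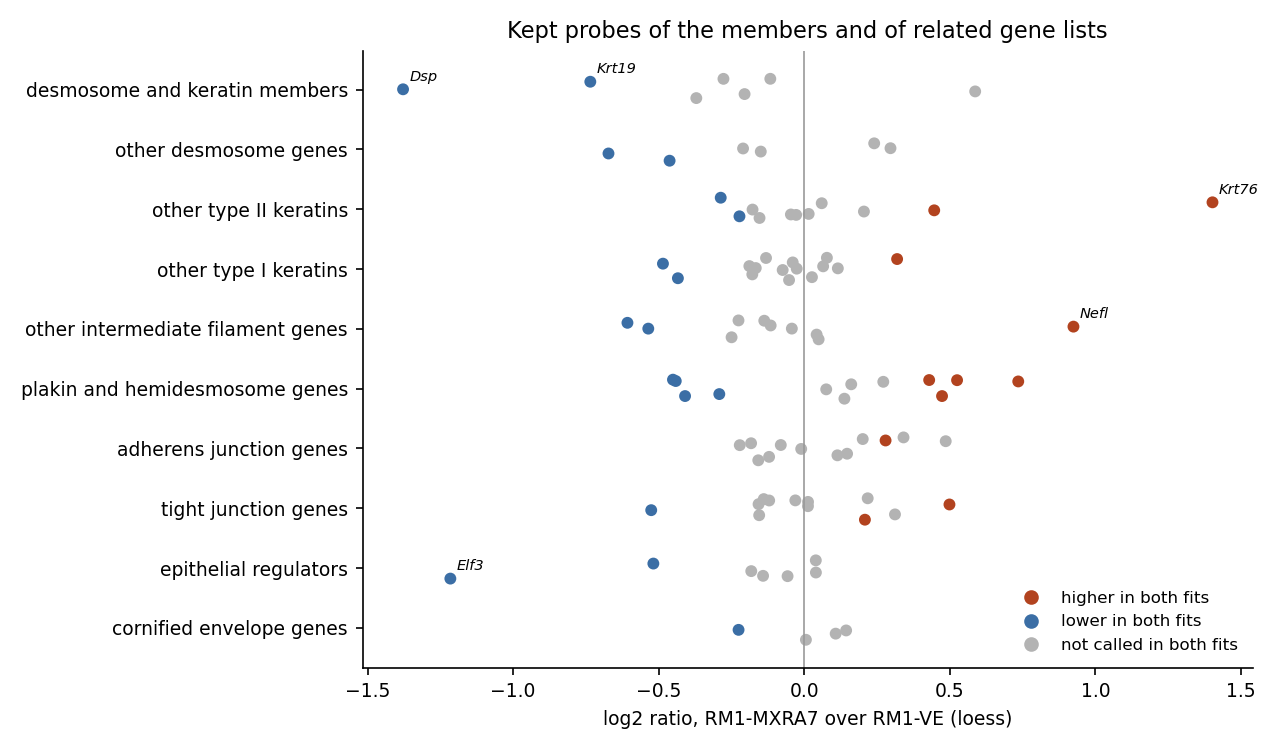
Log2 ratio of RM1-MXRA7 over RM1-VE after loess for every kept probe of the members and of the related lists; red points were higher and blue points lower in both fits, grey points were not called in both. Among the members Dsp at -1.38 and Krt19 at -0.73 are blue.

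Genes of other junctions were read in the same way. Of adherens junction genes, 1 of 12 kept probes rose and 0 fell. The riser was a probe of Vcl, the vinculin gene, at 0.28 ± 0.27 and at 0.24 ± 0.18 with the surface removed (SD, n = 3). Another kept Vcl probe lay at 0.20 before and 0.061 after surface removal and was not called in both fits. Cdh1 and Cdh3, the classical cadherin genes of epithelia, were not well above background. Of tight junction genes, 2 of 12 rose and 1 fell, a share near the 23.7% of all kept probes. F11r, the junctional adhesion molecule A gene, fell by 0.53 ± 0.14 (SD, n = 3; limma adjusted p = 6.76e-05) and by 0.74 ± 0.10 with the surface removed. Cldn12, a claudin gene, rose by 0.50 and by 0.21 with the surface removed, and Pard3, a polarity gene, by 0.21 and 0.19 on 1 of 4 kept probes.

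Among 14 epithelial regulators, 2 of 7 kept probes fell and 0 rose, also near the 23.7% of all kept probes. Elf3, which encodes an epithelial ETS transcription factor, had levels of 6.97, 6.81 and 6.79 in RM1-MXRA7, against 8.13, 8.0 and 8.09 in RM1-VE, which did not overlap. Its ratio was -1.22 ± 0.07 (SD, n = 3; limma adjusted p = 2e-09), with -1.14 ± 0.10 after surface removal. Trp63, the p63 gene of basal epithelium, had -0.52 ± 0.06 and -0.36 ± 0.06 (limma adjusted p = 4.83e-05 and 0.00201) on 1 of 4 probes, and the other 3 were not well above background. Of cornified envelope genes, 1 of 4 kept probes fell, that of Tgm3, a transglutaminase gene, at -0.23 and -0.20.

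Markers of other cell types were read beside these genes. Of 5 basal epithelial markers 3 were detected, with Krt5 and Dsg3 not above background. Their summed levels ran from 2514 to 2654 in RM1-MXRA7, against 3201 to 3474 in RM1-VE on the linear scale. Of their 3 kept probes only that of Trp63 was called in both fits, and those of Krt14 and Krt15 were not. Krt15 lay at 0.026 before and -0.014 after surface removal, and the median of the list at -0.17 and -0.18. Of 10 luminal markers only Krt8 and Krt18 were detected, with summed levels from 163600 to 198100 in RM1-MXRA7, against 149200 to 182700 in RM1-VE. These sums are loess levels and include Krt18, and the luminal list had 0 calls in both fits, with a median log2 ratio of -0.21 before and -0.016 after surface removal. The sums of fibroblast and mesenchymal markers ran from 270500 to 297400 in RM1-MXRA7, against 320900 to 352900 in RM1-VE. Of their 8 kept probes 2 rose and 2 fell in both fits, with a median log2 ratio of 0.033 before and 0.060 after surface removal. Of 6 leukocyte markers 2 were detected, and Ptprc and Lyz2 were among those not above background; the sums ran from 4317 to 12240 in RM1-MXRA7, against 5665 to 14830 in RM1-VE. Of 4 endothelial markers 3 were detected, with sums from 3058 to 3217 in RM1-MXRA7, against 3703 to 3870 in RM1-VE, and Tek was not above background. Of 4 neuroendocrine markers 3 were detected, with sums from 2798 to 3252 in RM1-MXRA7, against 3090 to 3304 in RM1-VE, and Chga was not above background. The leukocyte, endothelial and neuroendocrine lists each had 1 of 3 kept probes lower and 0 higher in both fits. The part of cell composition in the results was not tested, and in bulk RNA fewer cells of a type and less RNA per cell cannot be told apart.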

How the data were processed

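The authors deposited scanner output of Agilent Feature Extraction (version 10.7.1.1, per the submitters' processing notes), with spot and background intensity in both channels and the software's own detrended, dye-normalized processed intensity, per the file headers. The authors' series matrix, as deposited, lists linear ratios, which equalled Cy3 over Cy5 processed signal within 1% for 100% of values. Its column medians were 1.02, 1.03 and 0.972, so scale, centring and direction are known. All 3 arrays lay on 1 slide with 1 scan.

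Intensities were corrected with normexp (offset 50) and loess within arrays, with control spots at weight 0 (limma 3.58.1, R 4.3.3). Outlier-flagged spots were dropped, spots of a probe were averaged, and a probe counted as well above background on an array where at least 0.5 of its spots were. Log2 ratios of 21792 kept probes were tested against 0 with lmFit and eBayes (15.05 prior and 2 residual degrees of freedom), adjusted by Benjamini-Hochberg at 0.05. The surface was a polynomial of degree 4 in row and column, alone and times log2 intensity. Levels are log2 values per channel after loess and Aquantile. Both lines share each array, and the ratio is therefore paired by array. The limma fit with its adjustment was tested on simulated log ratios that had the spread of the kept probes. Normalisation, surface removal and the signal filter were not part of that test. List genes were matched by array name or, for 27508 probes, by the RefSeq symbol of the accession (GRCm38.p6, names only).

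Named genes are all members, Mxra7 and, from each list, up to 4 genes with the largest absolute ratio among those called in both fits; Ppl, Evpl, Pkp2, Pkp4, Krt14, Vim, Cdh1, Cdh3, Dsc2, Dsc3, Dsg1c and further marker genes were named after their values were seen. Members and lists were chosen with earlier results of these data known. The number of arrays limits the precision.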

Additional observations from a re-analysis of the deposited data

How the results depend on the processing

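Krt19 was called lower under every alternative that gave it a value, and so was Dsp, but the Dsp probe passed the filter through RM1-VE alone, so its calls say nothing of its stability. Krt19 was called in both fits whichever array was left out. Dsp was too, but the filter that kept it was set on all 3 arrays. The unchanged count of 2 therefore says nothing of the stability of Dsp. Asking for signal in both channels left Dsp and Jup untested. The number of member probes called, 6 before surface removal, was 2 with the surface removed, 3 with Agilent's processed signals, 3 with the series matrix ratio and 3 with the local median removed, an alternative chosen after seeing the data. It was 5 to 6 with an array left out. The count over all probes, 10313, was 6915 with the surface removed, 5121 with Agilent's processed signals and with the series matrix, 6517 with the local median removed and 2700 in single channels with no replicate block. With an array left out it was 6528 to 9311, the lowest without array 2. With the array as replicate block it was 10313, as the ratio already holds the pairing. Krt18 reversed to -0.016 with the surface removed and to -0.17 with median centring, and the Krt8 probe A_55_P2128501 reversed to 0.061 with the surface removed. With median centring the Krt8 probes lay at -0.80 (A_55_P2128501) and -0.98 (A_66_P128079), Pkp3 at -0.76 and Krt19 at -1.21. Median centring called 1278 probes higher and 12294 lower, against 5278 and 5035 with loess, and shifted the median of all probes by -0.26. Why the values differ was not tested. Dim probes have only bounds, which signal over background limits.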
